A study of Homo sapiens with 6 samples.

Results

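The genes described here are 10 regulators of the step from G1 into S phase of the cell cycle: the kinases CDK4, CDK6 and CDK2, the D cyclins CCND1, CCND2 and CCND3, the inhibitors CDKN1A, CDKN1B and CDKN2A, and the substrate RB1. They were taken by gene symbol from a transcript count table of 2 human bladder cancer cell lines, and all 10 were found, with 75 transcripts between them, among 30717 named genes. The set was put together after CDK4 had been seen to be lower in the knockdown libraries of these same data. The genes were thus chosen by their values in knockdown against control, in line against line and in transcript shares, and for the 10 genes these values are given below as a description, with a standard error and no p-value.

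A D cyclin binds CDK4 or CDK6, and the active pair adds phosphate to the retinoblastoma protein, the product of RB1. Phosphorylated retinoblastoma protein lets go of E2F transcription factors, which switch on genes for DNA synthesis, among them the E cyclins that activate CDK2. The INK4 proteins, p16 from CDKN2A among them, bind CDK4 and CDK6 alone and keep the D cyclins off, while p21 (CDKN1A) and p27 (CDKN1B) bind cyclin and kinase pairs and block those of CDK2. Loss of the CDKN2A locus and of RB1 and gain of D cyclins are known events of bladder cancer.

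The start regions of 3 of these genes are printed because the results turn on them: CDK4 lay several-fold below the control in all 4 knockdown libraries, CDK6 is its closest relative and lay above the control in them, and CDKN2A had counts in 1 line only. The bases come from RefSeq on GRCh38.p14, read 5′ to 3′ on the strand of the gene, which is the minus strand for all 3. Of the 10 genes, 7 matched that table, with 11 start windows; CDK2, CCND1 and CCND2 had no entry. In the 250 bases before the CDK4 start the letters CACGTG, which read the same on both strands, occurred 3 times, with first bases at -216, -196 and -101 from the start. The 3 stretches below are centred near these letters, shown in capitals, at chr12:57752509-57752538, chr12:57752489-57752518 and chr12:57752394-57752423; the first and the second overlap by 10 bases.
CDK4 upstream: atgtcaagcggtCACGTGtgatagcaacag
CDK4 middle: atagcaacagatCACGTGgctgccatcgcc
CDK4 downstream: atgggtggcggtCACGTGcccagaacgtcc
Of 35116 RefSeq windows of the same 250 bases, 6.34% held CACGTG at least once and 0.0797% (28 windows) held it 3 times or more. No window of the other matched genes held it. The upstream CDK6 start, at chr7:92836574-92836823, held the letters GGGCGG or their reverse complement CCGCCC 3 times, in capitals below. Its other start, at chr7:92833960-92834209, held none.
CDK6 upstream start: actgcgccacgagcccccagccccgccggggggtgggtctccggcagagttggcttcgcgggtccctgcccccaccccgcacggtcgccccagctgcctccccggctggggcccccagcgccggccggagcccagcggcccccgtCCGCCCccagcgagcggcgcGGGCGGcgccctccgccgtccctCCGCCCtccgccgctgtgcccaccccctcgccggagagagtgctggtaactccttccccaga
CDK6 downstream start: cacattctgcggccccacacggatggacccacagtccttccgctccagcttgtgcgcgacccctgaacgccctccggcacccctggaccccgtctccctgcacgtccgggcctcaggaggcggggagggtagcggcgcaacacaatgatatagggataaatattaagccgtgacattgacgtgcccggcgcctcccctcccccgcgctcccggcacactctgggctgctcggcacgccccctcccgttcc
GGGCGG was found in 42.6% of all windows and at least 3 times in 13.9%, and the CDK4 window also held it 3 times. The window before the upstream start of CDKN2A, at chr9:21995325-21995574, held none of the strings searched.
CDKN2A upstream start: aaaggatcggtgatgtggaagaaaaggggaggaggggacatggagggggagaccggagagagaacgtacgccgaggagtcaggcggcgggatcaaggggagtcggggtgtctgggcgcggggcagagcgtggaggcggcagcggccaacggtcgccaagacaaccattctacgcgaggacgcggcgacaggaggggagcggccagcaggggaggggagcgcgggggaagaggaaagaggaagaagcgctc
The strings TTTCGCGC and TTTGGCGC, searched on both strands as letters of the E2F type, were in 0.439% and 0.55% of all windows and in none of the 11 windows here. A match is a description of letters and not a binding site, and in the annotation that matches the count table the main CDK4 transcript, CDK4-201, begins within the upstream stretch.

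RNA was sequenced from T24 and UMUC3 (also written UM-UC-3), 2 established lines grown from human bladder carcinomas, each with 1 control library and 2 libraries after knockdown of circPTK2, a circular RNA made from the gene PTK2. The sample titles name small interfering RNAs (si-circPTK2-CON, si-circPTK2-1 and si-circPTK2-2), whereas the design text names sh constructs, and which of these was used could not be told. In T24 titles and data columns number the knockdown libraries crosswise, and the text follows the titles. No allele, drug, time or culture is given, so the 2 knockdown libraries of a line may differ by agent, and nothing says that libraries came from separate cultures: the spread between them may be technical. The level of circPTK2 was not analysed here, so the knockdown itself was not checked.

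Libraries held 65111683 to 72362436 counts, of which 14.86% to 16.1% lay in rows that name no gene and were set aside. Levels below are counts-per-million values (CPM) after scaling by the trimmed mean of M-values (TMM), listed in the order control, knockdown 1, knockdown 2. At these depths 3 counts, the limit that a count of 0 allows, correspond to 0.0493 to 0.0537 CPM, and this limit covers counting error only. Of 16 urothelial markers, 8 reached 1 CPM in a T24 library and 5 in a UMUC3 library, with keratins KRT7, KRT8 and KRT18 among both; uroplakins, KRT5, KRT20, TP63 and CDH1 were below 1 CPM in every library. The leukocyte gene PTPRC was below 1 CPM throughout, while summed immune markers were 31.4, 55.3 and 52.3 CPM in UMUC3. CD68 carried that sum (28.2, 54.2 and 51.2 CPM), while CD14 (0.896, 0.357 and 0.197 CPM) and ITGAM (2.29, 0.803 and 0.871 CPM) lay below the control in both UMUC3 knockdown libraries. Mitochondrially encoded genes summed to 24030, 30444 and 31861 CPM in T24 and to 41243, 38712 and 41887 CPM in UMUC3, and their part in the results below was not tested. Of 7 immune markers, 2 in each line reached 1 CPM in a library, and in T24 they summed to 9.3, 7.6 and 8.5 CPM. Of 8 stromal and endothelial markers, 4 in each line did so. These summed to 81.2, 68.8 and 71.6 CPM in T24 and to 9.01, 11.1 and 6.01 CPM in UMUC3. CDH5 carried the T24 sum (75.5, 64.5 and 67.4 CPM) and had 0 CPM in every UMUC3 library. In bulk RNA, fewer cells of a kind and less RNA in each cell cannot be told apart.

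Relative to the control of their line, all 4 knockdown libraries were lower for CDK4, CDKN1A, RB1 and CDK2, a placement that 15.1% of the 20721 genes tested showed, and all 4 were higher for CDK6 and CDKN1B, as for 13.3% of genes. For CDK2 this placement held in CPM and not per transcript length, as given below. The sizes were very unlike: CDK4 was 4.95-fold lower in T24 and 5.96-fold lower in UMUC3, CDKN1A 1.71-fold and 5.04-fold lower, and CDK6 1.53-fold and 2.28-fold higher, whereas CDK2, RB1 and CDKN1B stayed within 1.47-fold. With edgeR's quasi-likelihood fit over all genes and a Benjamini-Hochberg threshold of 0.05, 1 of the 10 passed in T24 (CDK4), where 0.135% of all genes passed. In UMUC3, 2 of 10 passed (CDK4 and CDKN1A), where 0.647% of all genes did, and with both lines together 1 of 10 (CDK4), where 0.0145% did. Each of these calls was lost when any 1 knockdown library was left out or the replicate number was used as a block, and those within a line also with voom. Over all alternative settings, CDK4 was called in 5 of 16 in T24, 8 of 16 in UMUC3 and 10 of 18 with both lines together. CDKN1A was called in 5 of 16 in UMUC3. Since these contrasts chose the set, nothing is read from those counts. All 10 passed the filter on low counts, CCND2 and CDKN2A through the line in which they were high.

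**Figure D1:**
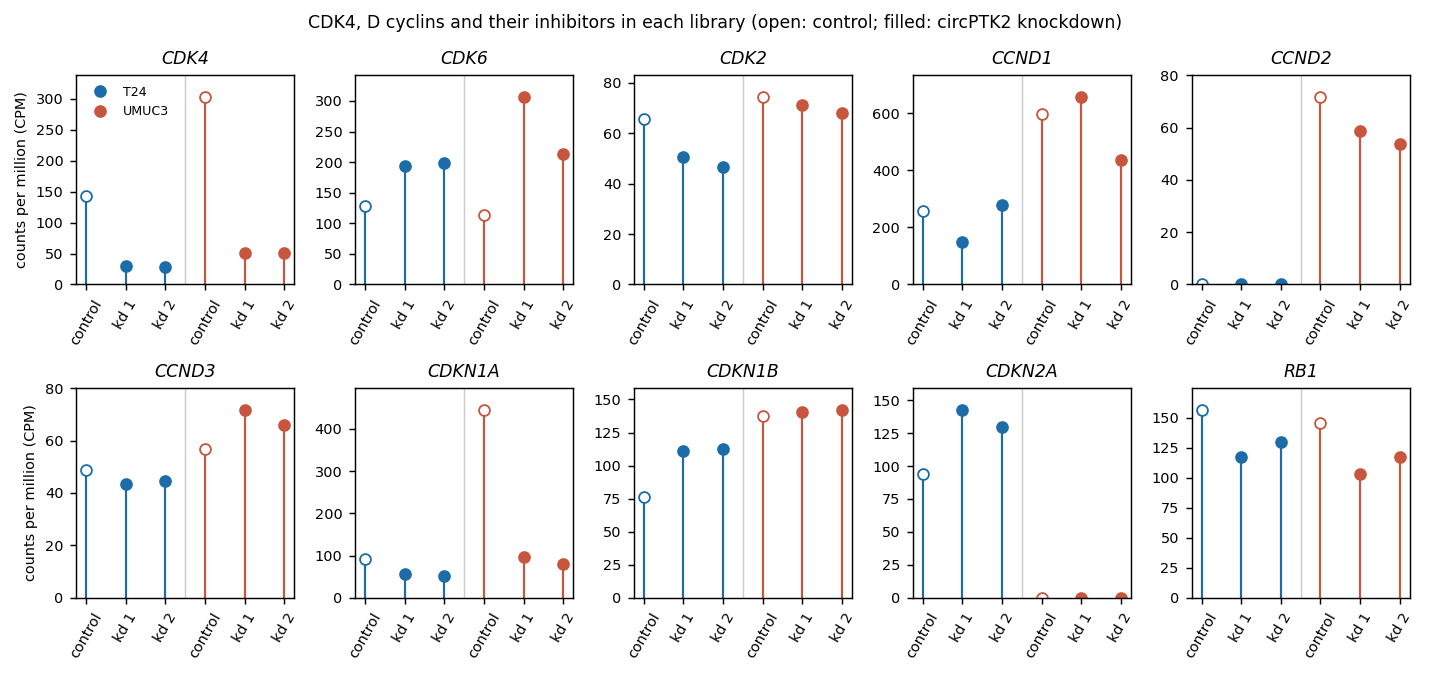
Level of each of the 10 genes in the 6 libraries, in CPM on linear axes that start at 0 and have their own scale in each panel; open points are controls, filled points knockdown libraries, and the colours mark T24 and UMUC3. CDK4 lies at 142 and 303 CPM in the controls and between 28.4 and 51.4 CPM in the knockdown libraries, CDK6 lies higher in all 4 knockdown libraries, and CDKN2A has no counts in UMUC3.

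CDK4 (ENSG00000135446; hg38 chromosome 12, 57747727 to 57756013, minus strand) encodes a kinase of D cyclins. Its level was 142, 29.2 and 28.4 CPM in T24. In UMUC3 it was 303, 51.4 and 50.2 CPM. The knockdown libraries of a line differed by less than 1.03-fold, no knockdown library of either line reached the lower control, and the order of the lines was kept, with UMUC3 above T24 in each condition. The knockdown mean was 28.8 ± 0.560 CPM in T24 and 50.8 ± 0.833 CPM in UMUC3 (SD, n = 2), which is 79.8% and 83.2% below the control. The fitted log2 difference was -2.31 ± 0.10 in T24 and -2.58 ± 0.10 in UMUC3 (SE), and that between the lines, UMUC3 minus T24, was -0.27 ± 0.15. Each line has 1 control library, so the error of a control is borrowed from the knockdown pairs.

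Most CDK4 counts were assigned to CDK4-201, a protein-coding transcript, with 6301, 1579 and 1361 counts in T24 and 14821, 2165 and 2188 in UMUC3. Its share of the gene was 74.5% in the T24 control (95% Wilson interval 73.6% to 75.4%) and 91.1% and 80.7% in the knockdown libraries (intervals 89.6% to 92.3% and 78.8% to 82.5%). In UMUC3 it went the other way, from 87.7% (87.2% to 88.2%) to 75.2% (73.5% to 76.7%) and 71.6% (70.0% to 73.2%). The share thus was higher after knockdown in T24 and lower in UMUC3, while the gene was lower in both. Taken alone, CDK4-201 gave log2 differences of -2.10 in T24 and -2.83 in UMUC3. The short retained-intron transcript CDK4-213 held 1060, 46 and 58 counts in T24 and 246, 94 and 108 in UMUC3, and the protein-coding CDK4-202 had 495 counts in the T24 control and 0 in every other library. Intervals cover counting error only, and the shares rest on the authors' assignment of reads to overlapping transcripts.

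CDK4 overlaps 2 genes on the opposite strand. TSPAN31, a tetraspanin gene, shares 2485 bases with it and had 10.3, 17.7 and 11.2 CPM in T24 and 10.1, 4.96 and 5.23 CPM in UMUC3. MARCH9, a ubiquitin ligase gene, shares 916 bases and had 13.6, 13.9 and 12.4 CPM in T24 and 21.6, 21.4 and 9.45 CPM in UMUC3. Neither lay below its control in both T24 knockdown libraries, and in UMUC3 both genes lay below the control in both. Whether the library kit or the counting used strand was not stated in the sources at hand, so reads from the shared stretches cannot be told apart.

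**Figure D2:**
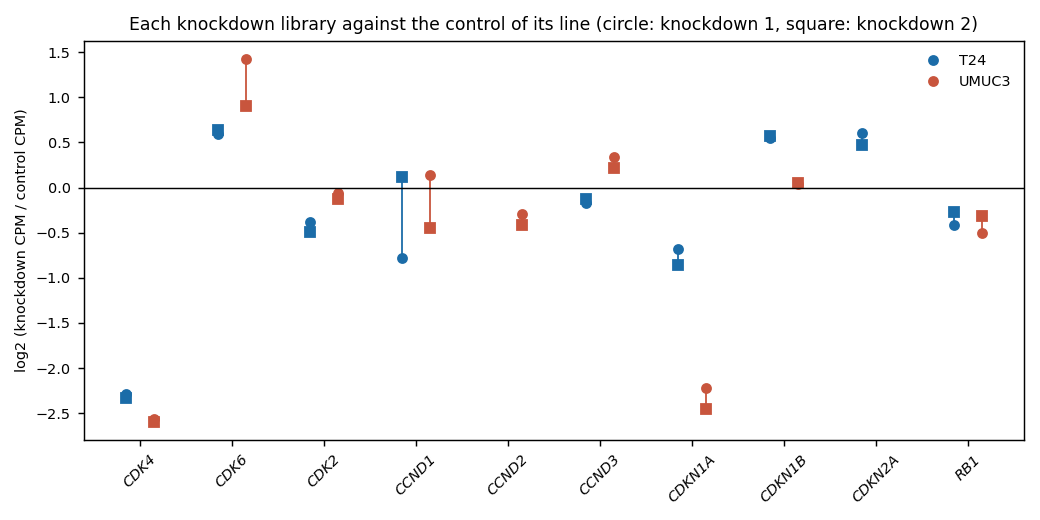
Log2 ratio of each knockdown library to the control of its line, in CPM, for each gene, with a circle for knockdown 1, a square for knockdown 2, a line joining the pair and no error bar; CCND2 is shown for UMUC3 and CDKN2A for T24 alone. The CDK4 pairs lie at -2.29 and -2.33 in T24 and at -2.56 and -2.59 in UMUC3, and the points of CCND1 lie on both sides of 0 in each line.

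CDK6 (ENSG00000105810; chromosome 7, 92604921 to 92836594, minus strand) encodes the other kinase of D cyclins. It stood at 128, 193 and 199 CPM in T24 and at 114, 306 and 214 CPM in UMUC3. The controls of the lines lay close together and every knockdown library lay above both, so control and knockdown did not overlap. The UMUC3 knockdown pair differed 1.43-fold, the T24 pair 1.03-fold. The log2 difference was 0.62 ± 0.24 in T24 and 1.19 ± 0.25 in UMUC3. CDK6-201, the main protein-coding transcript, carried 84.1% (83.2% to 85.0%) of the counts in the UMUC3 control and 93.3% (92.96% to 93.7%) in UMUC3 knockdown 1, and the T24 libraries lay between these.

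Since CDK6 transcripts are several times longer than those of CDK4, the genes were compared per length, as transcripts-per-million values (TPM), which are counts divided by transcript length and scaled to the same total in each library, computed from the counts and the annotated transcript lengths. On that scale CDK4 stood at 196, 33.0 and 36.6 TPM in T24 and at 341, 67.0 and 72.5 TPM in UMUC3, and CDK6 at 40.5, 55.4 and 53.02 TPM in T24 and at 40.6, 73.7 and 59.5 TPM in UMUC3. The ratio of CDK4 to CDK6 was therefore 4.83 in the T24 control and 0.595 and 0.691 after knockdown, and 8.39, 0.908 and 1.22 in UMUC3. CDK4 was the more abundant kinase transcript in both controls, and CDK6 was in 3 of the 4 knockdown libraries. Counting protein-coding transcripts alone, the ratios were 3.53, 0.532 and 0.583 in T24 and 8.39, 0.753 and 1.08 in UMUC3. The sum of both kinases was 236, 88.4 and 89.6 TPM in T24 and 381, 141 and 132 TPM in UMUC3, so the higher CDK6 level made up only part of the lower CDK4 level on this scale.

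**Figure D3:**
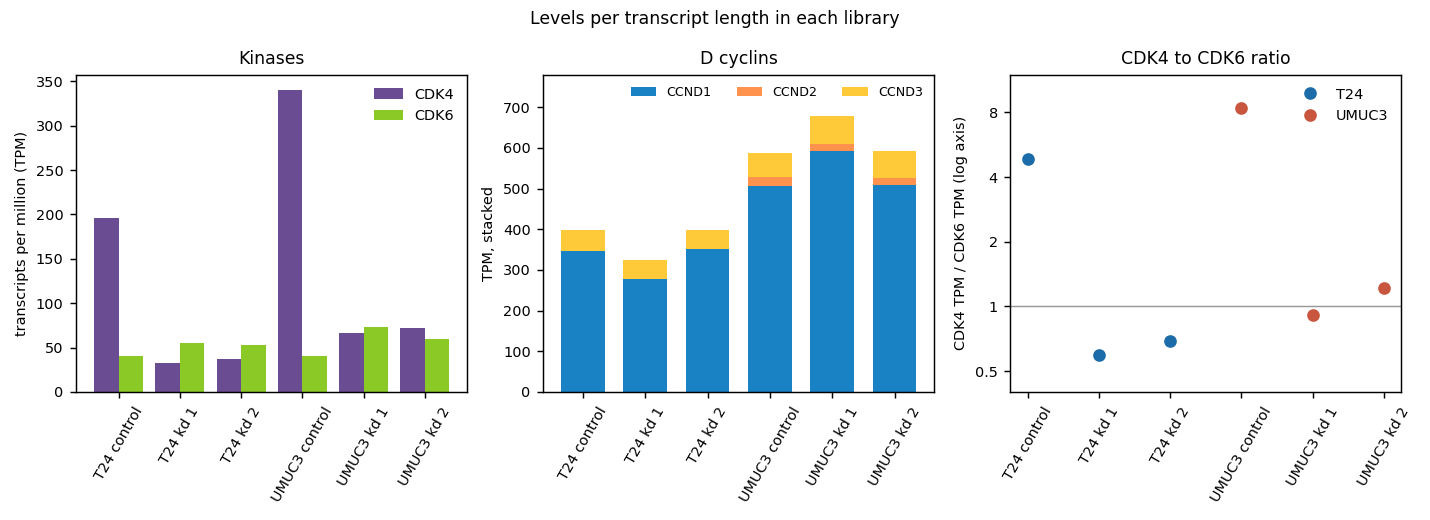
Levels per transcript length, all transcript types counted, in the 6 libraries: CDK4 and CDK6 side by side in TPM, the D cyclins stacked in TPM, and the ratio of CDK4 to CDK6 on a log axis with a line at 1. In both controls CDK4 lies above CDK6 (196 against 40.5 in T24, 341 against 40.6 in UMUC3), and after knockdown their ratio lies between 0.595 and 1.22.

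CDK2 (ENSG00000123374; chromosome 12, 55966769 to 55972784, plus strand), the kinase of E and A cyclins, had 65.5, 50.4 and 46.5 CPM in T24 and 74.3, 71.0 and 68.0 CPM in UMUC3. The log2 difference was -0.44 ± 0.13 in T24 and -0.10 ± 0.13 in UMUC3. Per length it stood at 74.9, 44.0 and 90.2 TPM in T24 and at 68.2, 74.8 and 63.8 TPM in UMUC3, so on that scale 1 knockdown library of each line lay above its control. Its transcripts varied far more than the gene. CDK2-208, annotated as a target of nonsense-mediated decay, took 60.2% (58.5% to 62.0%) of the counts in T24 knockdown 1 and between 3.83% and 7.74% in the other 5 libraries. CDK2-205, a processed transcript, took 27.4% (25.8% to 29.1%) in T24 knockdown 2 and 0.0333% in T24 knockdown 1. The 2 T24 knockdown libraries thus differed from each other in 58.0% of their CDK2 counts, the most of any of the 10 genes, and CDK2-201 alone, with 49.4, 15.8 and 25.8 CPM in T24, gave a log2 difference of -1.25 there and -0.10 in UMUC3. PMEL, on the opposite strand, spans all of CDK2 and had at most 1.26 CPM.

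Among the D cyclins, CCND1 was the most abundant in each library with all transcript types counted. CCND3 lay between 43.3 and 71.5 CPM, and CCND2 was close to 0 in T24. In protein-coding transcripts alone, T24 knockdown 1 had 2329 counts of CCND1 and 2508 of CCND3. CCND1 (ENSG00000110092; chromosome 11, 69641087 to 69654474, plus strand) stood at 257, 149 and 279 CPM in T24 and at 596, 656 and 437 CPM in UMUC3. In each line 1 knockdown library lay above the control and 1 below it. The pairs differed 1.87-fold in T24 and 1.5-fold in UMUC3, more than any other member's pairs, and the log2 differences were -0.27 ± 0.47 and -0.13 ± 0.48. By the titles, the lower library was knockdown 1 in T24 and knockdown 2 in UMUC3, and by the names of the data columns it carried the number 2 in both lines.

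The CCND1 spread in T24 lay in 1 transcript. CCND1-201, the main protein-coding form, had 144, 38.4 and 164 CPM in T24, while the retained-intron form CCND1-204 had 101, 102 and 103 CPM. In UMUC3 the same forms had 476, 482 and 283 CPM and 94.0, 159 and 130 CPM. CCND1-204 therefore held 68.3% (67.4% to 69.3%) of the gene's counts in T24 knockdown 1 against 39.3% (38.5% to 40.0%) and 37.0% (36.2% to 37.7%) in the other T24 libraries, and between 15.8% and 29.6% in UMUC3. Per length, with all transcript types counted, CCND1 made up 85.7% to 88.4% of the summed D cyclins in all 6 libraries. Retained-intron forms held from 19.9% of CCND1 counts, in the UMUC3 control, to 73.8%, in T24 knockdown 1. The share on protein-coding transcripts alone was not computed.

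CCND2 (ENSG00000118971; chromosome 12, 4273772 to 4305350, plus strand) had 4 counts in the T24 control and 0 in both T24 knockdown libraries, against 71.7, 58.7 and 53.9 CPM in UMUC3. Summed over the libraries of each line it was 2728-fold higher in UMUC3, with an exact 95% interval of 1065 to 10014 that covers counting error only. Within UMUC3 both knockdown libraries lay below the control, by a log2 difference of -0.35 ± 0.18. Even in UMUC3 it made up no more than 3.61% of the D cyclins per length, with all transcript types counted.

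CCND3 (ENSG00000112576; chromosome 6, 41934933 to 42050357, minus strand) had 48.6, 43.3 and 44.5 CPM in T24 and 56.7, 71.5 and 66.0 CPM in UMUC3. Both knockdown libraries lay below the control in T24 and above it in UMUC3, with log2 differences of -0.15 ± 0.14 and 0.28 ± 0.14. In UMUC3 the protein-coding CCND3-204 had 804 counts in the control and 0 in both knockdown libraries, and CCND3-203, which overlaps it, had 2121, 3781 and 3884. On CCND3-203 alone the log2 difference in UMUC3 was 0.79, so its size depends on how the reads were split between the 2 forms. The summed D cyclins were 399, 325 and 398 TPM in T24 and 587, 679 and 592 TPM in UMUC3, and per unit of CDK4 plus CDK6 they were 1.69, 3.68 and 4.44 in T24 and 1.54, 4.82 and 4.48 in UMUC3. The summed kinases lay below the control in all 4 knockdown libraries. For the summed D cyclins knockdown 2 lay close to the control in each line (398.1 against 398.9 TPM in T24, 591.5 against 587.3 TPM in UMUC3). Knockdown 1 lay below the control in T24 and above it in UMUC3. In CPM, CCND1, the largest part of these sums, had a knockdown library on either side of the control in each line, so no direction is read from the sums. The sums and their ratios to the kinases count all transcript types, the retained-intron forms of CCND1 among them.

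Of the inhibitors, CDKN1A was lower after knockdown, steeply in UMUC3; CDKN1B and CDKN2A were higher in T24. CDKN1A (ENSG00000124762; chromosome 6, 36676460 to 36687339, plus strand), the gene of p21, stood at 91.7, 57.0 and 50.5 CPM in T24 and at 444, 95.6 and 80.8 CPM in UMUC3. The UMUC3 control stood far above the other 5 libraries, and the UMUC3 knockdown libraries lay near the T24 control. Means after knockdown were 53.8 ± 4.63 CPM and 88.2 ± 10.4 CPM (SD, n = 2), which is 41.4% and 80.1% below the controls. The log2 difference was -0.77 ± 0.15 in T24 and -2.33 ± 0.15 in UMUC3, and UMUC3 minus T24 was -1.56 ± 0.22.

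In both lines the lower CDKN1A level lay in CDKN1A-201, which had 56.3, 15.6 and 12.9 CPM in T24 and 370, 62.9 and 32.3 CPM in UMUC3. CDKN1A-203, which is also protein-coding and begins at base 36678710 against 36678658 for CDKN1A-201, had 34.1, 40.8 and 37.1 CPM in T24 and 60.6, 30.3 and 46.1 CPM in UMUC3. The share of CDKN1A-201 was 61.4% (60.1% to 62.7%), 27.3% (25.8% to 28.8%) and 25.5% (23.9% to 27.1%) in T24, and 83.3% (82.8% to 83.8%), 65.8% (64.5% to 67.0%) and 39.9% (38.6% to 41.3%) in UMUC3. In each line the control share lay above both knockdown shares, but a lone control has no spread of its own. The 2 UMUC3 knockdown libraries differed from each other in 25.9% of their CDKN1A counts. The shares rest on the authors' assignment of reads to overlapping transcripts with nearby starts. On CDKN1A-201 alone the log2 difference was -1.99 in T24 and -2.96 in UMUC3.

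**Figure D4:**
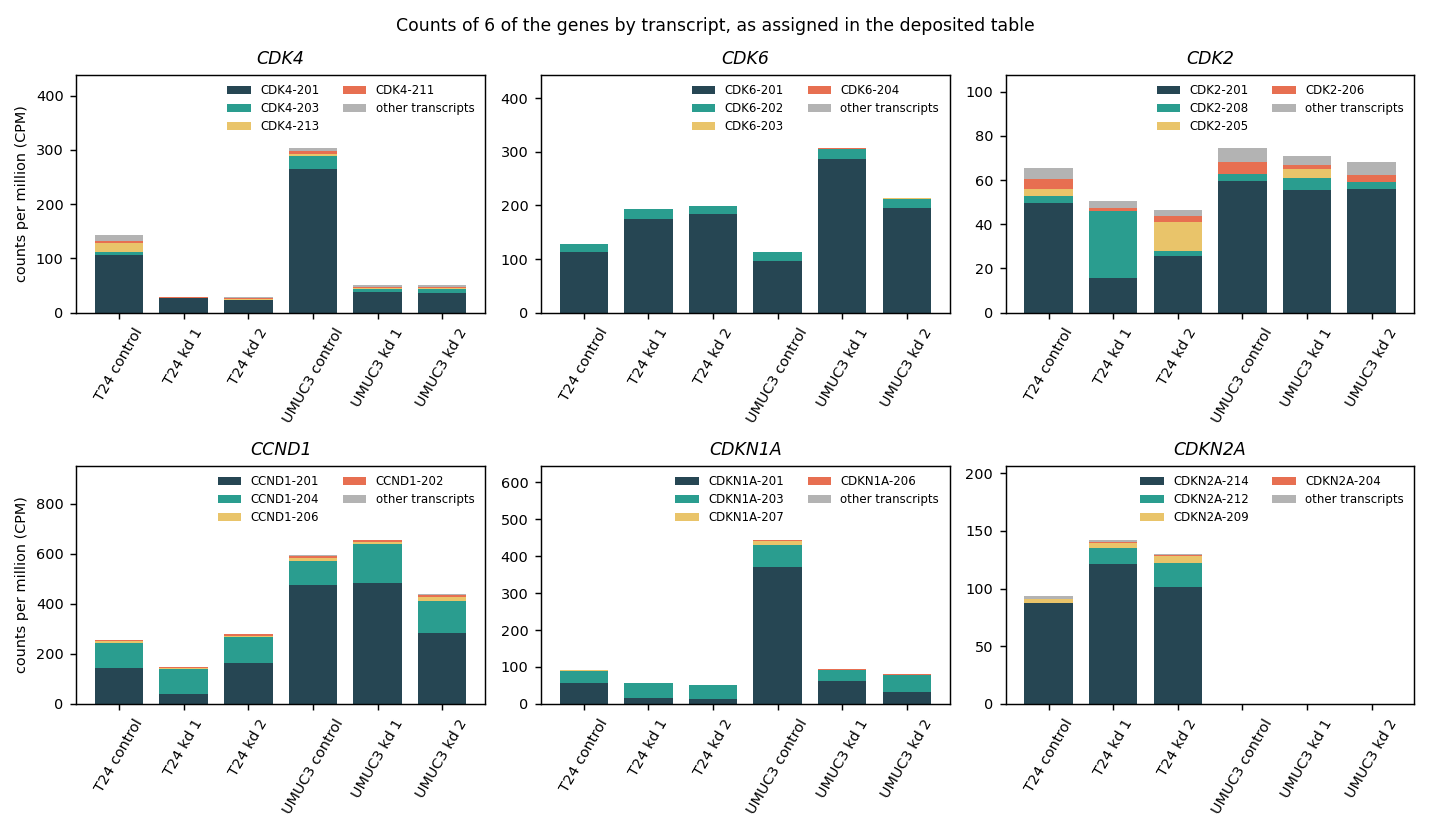
Stacked CPM of the 4 leading transcripts and of all others for CDK4, CDK6, CDK2, CCND1, CDKN1A and CDKN2A in the 6 libraries (kd is knockdown), each panel with its own axis. CDK4-201 and CDKN1A-201 are lower in every knockdown library than in the control, CDK2-208 stands out in T24 knockdown 1, and CCND1-204 stays between 101 and 103 CPM in the 3 T24 libraries.

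CDKN1B (ENSG00000111276; chromosome 12, 12715058 to 12722371, plus strand), the gene of p27, had 76.1, 111 and 113 CPM in T24 and 137, 141 and 142 CPM in UMUC3. The T24 knockdown libraries agreed to 1.02-fold and lay 47.1% above their control, a log2 difference of 0.56 ± 0.10. In UMUC3 the difference was 0.04 ± 0.10, with the 3 libraries between 137 and 142 CPM. A single transcript, CDKN1B-201, held 99.5% or more of the counts. Per length, p21 transcripts exceeded those of p27 in both controls and were below them in all 4 knockdown libraries: the ratio of CDKN1A to CDKN1B was 1.47, 0.631 and 0.546 in T24 and 4.23, 0.878 and 0.739 in UMUC3.

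CDKN2A (ENSG00000147889; chromosome 9, 21967753 to 21995301, minus strand) had 93.8, 142 and 130 CPM in T24 and no count in any UMUC3 library. Against 3 counts in a UMUC3 library, the lowest T24 library was at least 1746-fold higher. In T24 both knockdown libraries lay above the control, by a log2 difference of 0.54 ± 0.15. The gene has a pair of starts: transcripts from the upstream first exon, whose window is printed above, can encode p14ARF, and those from the second start encode p16. In T24 the transcripts that begin at the upstream exon held 98.5% (98.1% to 98.8%) of the counts in the control, 89.7% (89.1% to 90.4%) in knockdown 1 and 83.1% (82.3% to 83.9%) in knockdown 2. The 1 transcript of the table that begins at the second start held 36, 33 and 23 counts. Most of the rest in the knockdown libraries was CDKN2A-212, which begins inside the gene, with 2 counts in the control and 801 and 1236 after knockdown. These shares cover the 11 CDKN2A transcripts that have a row here; the main p16 transcript has none, so reads of p16 may be counted under other transcripts.

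Beside CDKN2A on 9p21, 4 genes had counts in T24 and none in UMUC3. CDKN2B, which encodes the INK4 inhibitor p15, had 26.96, 38.3 and 32.8 CPM in T24, the antisense gene CDKN2B-AS1 had 2.64, 2.57 and 2.64 CPM, the metabolic enzyme gene MTAP had 53.3, 25.2 and 65.1 CPM, and DMRTA1 had 1.04, 0.706 and 0.337 CPM. With 0 counts in all 3 UMUC3 libraries, CDKN2B was at least 502-fold and MTAP at least 469-fold higher in T24. Of the other 3 neighbours, KLHL9 had 106, 104 and 125 CPM and FOCAD 16.1, 43.4 and 28.9 CPM in UMUC3, against 40.6, 38.5 and 46.9 CPM and 15.5, 8.63 and 15.9 CPM in T24. IFNE was low in both lines, at 0.370, 1.35 and 1.13 CPM in T24 and 1.51, 0.607 and 0.477 CPM in UMUC3. Between the lines 4 of the 7 neighbours passed the edgeR threshold as higher in T24 and 1 as lower, or 71.4% beside 40.2% of all genes. The 4 with no UMUC3 count had passed the filter on low counts through T24, so nothing is read from this count. For knockdown 0 of the 7 passed with edgeR in either line. An unadjusted p below 0.05 was found for 1 in T24 and 1 in UMUC3 (14.3% each, beside 12.5% and 16.8% of all genes), and DESeq2 and voom called 0. CDKN2B-AS1 overlaps CDKN2A by 524 bases on the opposite strand.

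RB1 (ENSG00000139687; chromosome 13, 48303726 to 48599436, plus strand) had 156, 117 and 130 CPM in T24 and 146, 103 and 117 CPM in UMUC3. Both controls lay above all 4 knockdown libraries, and the lines overlapped. The log2 difference was -0.34 ± 0.14 in T24 and -0.40 ± 0.14 in UMUC3. RB1-201 held at least 98.5% of the counts in each library, so the gene sum and this transcript gave nearly the same values. Several genes lie within RB1 on the opposite strand, of which LPAR6 had at most 5.76 CPM and RCBTB2 at most 9.72 CPM.

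Between the lines, 6 of the 10 genes had T24 and UMUC3 libraries that did not overlap, where 52.3% of all genes did so: CDK2, CCND1, CCND2, CCND3 and CDKN1B were higher in UMUC3 and CDKN2A in T24. With condition in the fit, 7 of 10 passed the edgeR threshold, where 40.2% of all genes did, and nothing is read from either count. T24 minus UMUC3 was -0.91 ± 0.12 for CDK4 on the log2 scale, -1.31 ± 0.28 for CCND1, -0.51 ± 0.15 for CCND3, -1.23 ± 0.35 for CDKN1A and -0.51 ± 0.14 for CDKN1B. CDK2 at -0.41 ± 0.13, CDK6 at -0.22 ± 0.19 and RB1 at 0.15 ± 0.11 did not pass. The calls of CCND3 and CDKN1B were lost when any 1 knockdown library was left out, those of CCND3, CDKN1A and CDKN1B with the replicate number as a block, those of CCND3 and CDKN1A with no filter on low counts, and that of CCND1 when either control was left out. CDKN1A also lost its call without either T24 knockdown library or without UMUC3 knockdown 1. Since the line contrast was among those that chose the set, the calls are a description and not support for any of the genes. The value for CDKN1A averages unlike conditions: the controls stood at 91.7 CPM in T24 and 444 CPM in UMUC3, and the knockdown means at 53.8 and 88.2 CPM. Per length, with all transcript types counted, the controls ranked alike at the top, with CCND1 first (346 TPM in T24, 507 in UMUC3). CDK4 and CDKN2A followed in T24 (196 and 156), and CDKN1A and CDK4 in UMUC3 (416 and 341). With 1 control library in each line the neighbours in this order have no spread of their own. Retained-intron forms held 43.8% of CCND1 counts in the T24 control and 19.9% in the UMUC3 control. The order on protein-coding transcripts alone was not computed.

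The genes that act around these 10 were followed in lists of known pathway members. Over all 20721 genes an unadjusted edgeR p below 0.05 was found for 12.5% in T24, 16.8% in UMUC3 and 13.5% for the difference between the lines, and DESeq2 called 4.65%, 8.2% and 5.41%, and the counts of each list stand beside these shares. Among 17 pocket protein, E2F and DP genes, 1 passed for knockdown in UMUC3: RBL1, which encodes p107, a relative of the retinoblastoma protein, fell from 55.4 to 14.8 and 13.9 CPM, a log2 difference of -1.95 ± 0.14 (edgeR adjusted p = 0.0432, lower in both knockdown libraries). In T24 it had 83.0, 72.9 and 65.8 CPM. The call rests on the full set of libraries, since leaving out any 1 knockdown library left 0 calls over all genes. In UMUC3 0.647% of all genes passed with edgeR, and of the 17 genes 4 had an unadjusted p below 0.05, DESeq2 called 4 and voom 0. In T24 0 of the 17 passed with edgeR, 3 had an unadjusted p below 0.05, DESeq2 called 2 and voom 0. E2F1, the activator of S-phase genes, had 143, 91.4 and 92.8 CPM in T24 and 44.0, 92.0 and 81.2 CPM in UMUC3, so its knockdown libraries lay below the control in 1 line and above it in the other. UMUC3 minus T24 was 1.61 ± 0.19 and did not pass (edgeR adjusted p = 0.116), where 0.0579% of all genes passed. E2F2 had 20.2, 12.2 and 13.1 CPM in T24 and 93.4, 92.1 and 91.0 CPM in UMUC3, and T24 minus UMUC3 was -2.64 ± 0.18 on the log2 scale (edgeR adjusted p = 0.000319, T24 below UMUC3 in every library). E2F5, a repressor of the family, had 6.68, 2.29 and 4.58 CPM in T24 and 12.9, 7.22 and 9.30 CPM in UMUC3. Between the lines, where 40.2% of all genes passed, 3 of the 17 passed as higher in T24 and 3 as lower. Among the higher were RBL1 (log2 1.71 ± 0.38) and RBL2 (0.85 ± 0.15), which encodes p130. Among the lower was TFDP2 (-0.67 ± 0.13), which encodes a DP partner of E2F. The value for RBL1 averages unlike conditions: the controls stood at 83.0 CPM in T24 and 55.4 CPM in UMUC3, and the UMUC3 knockdown libraries at 14.8 and 13.9 CPM.

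Target genes of E2F at G1/S, 32 in all, make the replication machinery and its nucleotides. In T24, 26 of the 32 had a negative log2 difference, with a median of -0.37, beside 50.8% of all genes and a median of 0.00. With edgeR 0 passed, 19 (59.4%, beside 12.5% of all genes) had an unadjusted p below 0.05, DESeq2 called 9 (28.1%, beside 4.65%) and voom 0. In UMUC3, 9 of the 32 were negative and the median was 0.17, beside 46.9% and 0.00 over all genes; 0 passed, 10 (31.2%, beside 16.8%) had an unadjusted p below 0.05, DESeq2 called 3 (9.38%, beside 8.2%) and voom 0. The difference between the lines, UMUC3 minus T24, was positive for 28 of the 32 with a median of 0.53, where the median of all genes was 0.02, and 0 passed with edgeR (19 at an unadjusted p below 0.05, or 59.4% beside 13.5%, DESeq2 7, or 21.9% beside 5.41%, and voom 0). MCM3, a subunit of the replicative helicase, had 243, 147 and 132 CPM in T24 and 165, 255 and 243 CPM in UMUC3. PCNA, the sliding clamp, had 509, 361 and 365 CPM and 401, 482 and 482 CPM. MYBL2, a transcription factor of the cell cycle, had 357, 443 and 419 CPM and 303, 522 and 477 CPM. In all 3 the UMUC3 knockdown libraries lay above their control, and in T24 those of MCM3 and PCNA lay below. Of the 32 genes, 9 lay below the control in all 4 knockdown libraries, beside 15.1% of all genes, and 2 above it, beside 13.3%. These counts were not tested. MCM2, another helicase subunit, had 266, 134 and 146 CPM in T24 (log2 -0.92 ± 0.10) and 293, 264 and 282.5 CPM in UMUC3. CDC6, which loads the helicase, had 118, 65.4 and 68.2 CPM in T24 (-0.82 ± 0.11) and 98.75, 101 and 106 CPM in UMUC3. GINS2, a further part of the helicase, had 19.1, 39.2 and 33.9 CPM in UMUC3. SLBP, which binds histone messages, differed by -0.61 ± 0.13 over both lines and UHRF1, a reader of DNA methylation, by 0.94 ± 0.25. Between the lines 3 of the 32 passed as higher in T24, among them TK1 (1.08 ± 0.13) and RRM1 (0.70 ± 0.14), which make nucleotides, and 11 as lower, among them MCM7 (-1.23 ± 0.12) and HELLS (-2.69 ± 0.30), beside 40.2% of all genes in either direction.

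**Figure D5:**
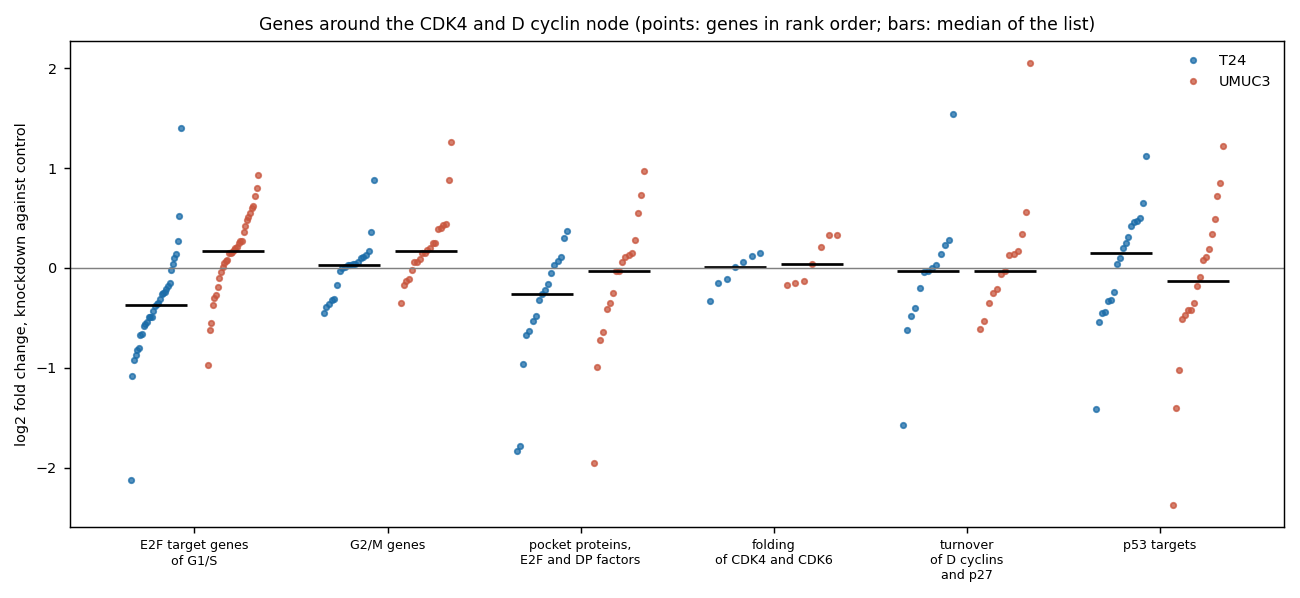
Knockdown against control as a log2 difference for each tested gene of 6 pathway lists, T24 and UMUC3 side by side, with genes in rank order and a bar at the median of the list. The 32 E2F targets of G1/S have a median of -0.37 in T24 and 0.17 in UMUC3, and the 18 p53 targets 0.15 and -0.14.

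The partners of CDK2 and the activators of the kinases, 14 genes, had 0 calls for knockdown with edgeR in either line, 4 and 3 at an unadjusted p below 0.05 in T24 and UMUC3, 2 and 1 with DESeq2 and 0 with voom. CCNE1, a cyclin of CDK2, had 9.65, 4.47 and 4.75 CPM in T24 and 28.3, 18.5 and 13.4 CPM in UMUC3, below the control in all 4 knockdown libraries, and T24 lay below UMUC3 (log2 -1.71 ± 0.21, edgeR adjusted p = 0.0022, no overlap between the lines). CDC25B, a phosphatase that activates CDKs, had 454, 634 and 667 CPM in T24 and 465, 582 and 564 CPM in UMUC3. CDK7, which activates other CDKs, was higher in T24 (43.2, 32.3 and 37.6 CPM) than in UMUC3 (14.6, 15.1 and 15.2 CPM), a log2 difference of 1.33 ± 0.17 (edgeR adjusted p = 0.00233, T24 above UMUC3 in every library). WEE1, a kinase that restrains CDK1 and CDK2, had 83.1, 125 and 145 CPM in T24 and 115, 98.2 and 105 CPM in UMUC3. The mitotic cyclin gene CCNB2 had 159, 157 and 157 CPM and 103, 161 and 162 CPM, and CCNB1 was higher in T24 by a log2 difference of 1.26 ± 0.11 (edgeR adjusted p = 0.000672, T24 above UMUC3 in every library). The medians of the list were -0.17 in T24 and -0.03 in UMUC3 for knockdown. Below the control in all 4 knockdown libraries were 3 of the 14, CCNE1 among them, beside 15.1% of all genes, and 2 lay above it, beside 13.3%.

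Of the other inhibitors, CDKN2C, the gene of the INK4 protein p18, had 176, 148 and 131 CPM in T24 and 80.8, 120 and 113 CPM in UMUC3. It thus had counts in the line in which CDKN2A and CDKN2B had none. CDKN2D, the gene of p19, had 35.1, 29.4 and 27.2 CPM in T24 and 9.14, 10.2 and 10.1 CPM in UMUC3, a log2 difference between the lines of 1.63 ± 0.18 (edgeR adjusted p = 0.0015, T24 above UMUC3 in every library). CDKN1C, the gene of p57, had 5.61, 8.26 and 7.74 CPM in T24 and 3.26, 5.51 and 7.90 CPM in UMUC3, above the control in all 4 knockdown libraries, and CDKN3, a phosphatase gene, had 62.0, 38.1 and 46.1 CPM and 39.7, 35.5 and 39.4 CPM. For knockdown, 0 of the 5 genes of this list passed with edgeR, 1 in T24 and 2 in UMUC3 had an unadjusted p below 0.05, and DESeq2 and voom called 0. In all 4 knockdown libraries 1 of the 5 lay above the control and 1 below it, beside 13.3% and 15.1% of all genes. Of 14 genes for the turnover of D cyclins and p27, 13 were tested and 0 passed for knockdown with edgeR; 2 in T24 and 0 in UMUC3 had an unadjusted p below 0.05, and DESeq2 and voom called 0. SKP2, which marks p27 for degradation, had 44.4, 26.1 and 31.5 CPM in T24 and 58.5, 36.9 and 43.9 CPM in UMUC3, below the control in all 4 knockdown libraries. Its partner SKP1 lay below the control in the same way (160, 101 and 129 CPM in T24, 175, 131 and 143 CPM in UMUC3). Of the 13 genes, 5 lay below the control in all 4, beside 15.1% of all genes, and 3 above it, beside 13.3%. CKS1B, a cofactor of SKP2, had 133, 98.1 and 104 CPM in T24, and GSK3B, which marks cyclin D1 for export and decay, had 106, 137 and 176 CPM in UMUC3. Between the lines 0 of the 13 passed as higher in T24 and 3 as lower, among them CUL1 (log2 -1.07 ± 0.10), a scaffold of the ligase, and USP2 (-3.60 ± 0.55), which removes ubiquitin. That is 23.1% in either direction, beside 40.2% of all genes.

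HSP90AB1, a chaperone that folds CDK4, had 1583, 1706 and 1744 CPM in T24 and 3462, 3105 and 3045 CPM in UMUC3, and its co-chaperone CDC37 had 109, 92.5 and 110 CPM and 82.4, 88.9 and 102 CPM. Of the 7 folding genes 0 passed for knockdown with edgeR, 0 in T24 and 2 in UMUC3 had an unadjusted p below 0.05, and DESeq2 and voom called 0. Their medians were 0.01 in T24 and 0.04 in UMUC3. Between the lines HSP90AB1 was lower in T24 (log2 -0.93 ± 0.08, edgeR adjusted p = 0.000707, every T24 library below every UMUC3 library), as was PPP5C, a phosphatase that binds HSP90 (-0.96 ± 0.10, edgeR adjusted p = 0.0014, again with no overlap). HSP90AA1, the other cytosolic HSP90 gene, had 1609, 1997 and 2062 CPM in UMUC3, and AHSA1, an activator of HSP90, had 103, 77.0 and 86.8 CPM in T24.

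CDKN1A is a known target of p53, so 18 other targets of p53 were set beside it. For knockdown 0 of them passed with edgeR in either line, 3 in T24 and 5 in UMUC3 had an unadjusted p below 0.05, DESeq2 called 1 and 2, and voom 0. Their median log2 difference was 0.15 in T24 and -0.14 in UMUC3, and 7 and 10 of the 18 were negative. CCNG1, encoding cyclin G1, had 57.9, 125 and 127 CPM in T24 and 58.8, 64.5 and 70.0 CPM in UMUC3, and SESN2, a stress gene, had 39.3, 52.0 and 52.99 CPM and 21.2, 48.9 and 49.7 CPM. Both genes and BAX, 3 of the 18, lay above the control in all 4 knockdown libraries, beside 13.3% of all genes. AEN, ZMAT3 and PHLDA3, also 3 of the 18, lay below it in all 4, beside 15.1% of all genes. Nothing is read from either count. AEN, a nuclease gene, had 79.3, 64.6 and 51.7 CPM in T24 and 52.8, 39.4 and 39.5 CPM in UMUC3. ZMAT3, a zinc finger gene, had 18.1, 12.01 and 1.60 CPM and 49.4, 15.4 and 3.81 CPM, and PHLDA3 had 36.3, 26.3 and 31.3 CPM in T24 and at most 0.0717 CPM in UMUC3, near the level of 3 counts. TNFRSF10B, a death receptor gene, had 138, 191 and 188 CPM in T24 and 234, 184 and 184 CPM in UMUC3, and XPC, a DNA repair gene, had 54.5, 46.5 and 45.5 CPM and 21.2, 38.4 and 37.9 CPM. Between the lines 6 of the 18 passed as higher in T24, PHLDA3 and the growth factor gene GDF15 (log2 6.70 ± 0.27) among them, and 2 as lower, BAX (-0.88 ± 0.15) and TIGAR (-0.81 ± 0.17). That is 44.4% in either direction, beside 40.2% of all genes, and nothing is read from it. Among 15 other cyclin-dependent kinases 0 passed for knockdown with edgeR, 2 in T24 and 4 in UMUC3 had an unadjusted p below 0.05, DESeq2 called 1 and 2, and voom 0. CDK16 had 162, 51.2 and 64.5 CPM in T24 and 40.5, 27.1 and 23.7 CPM in UMUC3, and CDK14 had 32.4, 38.4 and 45.1 CPM and 15.4, 55.3 and 63.9 CPM, with a log2 difference in UMUC3 of 1.95 ± 0.21 for CDK14 that did not pass (edgeR adjusted p = 0.0584, above the control in both knockdown libraries). CDK20 lay below the control in all 4 knockdown libraries (6.38, 3.57 and 2.51 CPM, 6.02, 5.64 and 4.24 CPM) and CDK19 above it (44.9, 50.1 and 59.0 CPM, 40.7, 61.4 and 68.5 CPM), while CDK9, a kinase of transcription, had 86.0, 95.6 and 85.1 CPM and 33.1, 51.5 and 49.5 CPM. Of the 15, 3 lay below the control in all 4 and 5 above it, beside 15.1% and 13.3% of all genes. Between the lines 5 of the 15 passed as higher in T24, among them CDK17 (log2 1.27 ± 0.18) and CDK16 (1.46 ± 0.22), and 2 as lower, CDK3 (-2.92 ± 0.58) and CDK11A (-0.52 ± 0.15). Both directions together made 46.7%, again beside 40.2% of all genes.

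Of 20 genes of G2 and mitosis, 0 passed for knockdown with edgeR, 1 in T24 and 5 in UMUC3 had an unadjusted p below 0.05, DESeq2 called 0 and 1, and voom 0. Their medians were 0.03 in T24 and 0.17 in UMUC3. PLK1, a mitotic kinase, had 296, 236 and 238 CPM in T24 and 208, 161 and 165 CPM in UMUC3, whereas CENPF, a kinetochore gene, had 327, 321 and 349 CPM and 206, 351 and 409 CPM. AURKA, a spindle kinase, had 67.9, 55.9 and 43.5 CPM in T24, and UBE2C, an enzyme of the anaphase ligase, had 295, 409 and 392 CPM in UMUC3. Between the lines 4 of the 20 passed as higher in T24, NDC80 (log2 1.13 ± 0.20) among them, and 5 as lower, among them TTK (-1.11 ± 0.13) and MKI67 (-0.86 ± 0.14). In either direction 45% of the list passed, beside 40.2% of all genes.

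Of 22 neighbours of CDK4 listed on 12q14, 19 were tested and 0 passed for knockdown with edgeR; 4 (21.1%) in each line had an unadjusted p below 0.05, beside 12.5% and 16.8% of all genes, DESeq2 called 2 in T24 (10.5%, beside 4.65%) and 3 in UMUC3 (15.8%, beside 8.2%), and voom 0. Their median log2 difference was -0.05 in T24 and -0.25 in UMUC3. CTDSP2, a phosphatase gene, had 288, 258 and 262 CPM in T24 and 251, 286 and 279 CPM in UMUC3. OS9, a lectin gene of the endoplasmic reticulum, had 178, 188 and 218 CPM and 148, 196 and 170 CPM. DCTN2, a dynactin gene, had 167, 119 and 104 CPM and 99.2, 123 and 121 CPM. TSFM, a mitochondrial elongation factor gene, had 28.8, 13.6 and 27.1 CPM and 64.8, 34.4 and 16.2 CPM, and PIP4K2C, a lipid kinase gene, had 29.4, 25.9 and 52.99 CPM and 41.7, 10.6 and 9.45 CPM. CYP27B1, which activates vitamin D, had 0.876, 9.40 and 6.18 CPM and 11.4, 4.41 and 3.34 CPM, so its knockdown libraries lay above the control in T24 and below it in UMUC3.

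Of the remaining neighbours, METTL1, EEF1AKMT3, ATP23, AVIL, AGAP2 and SLC26A10 stayed between 0.572 and 20.6 CPM. ARHGEF25 had 12.8, 6.44 and 6.55 CPM in T24 and 20.2, 20.7 and 22.7 CPM in UMUC3. Between the lines B4GALNT1 (11.3, 9.94 and 10.5 CPM in T24, 90.1, 78.4 and 68.9 CPM in UMUC3) and DTX3 (5.34, 4.17 and 4.33 CPM, 36.01, 36.5 and 37.1 CPM) were lower in T24. AGAP2-AS1 had 35.4, 33.7 and 35.9 CPM in T24 and at most 0.143 CPM in UMUC3, and KIF5A had 0 counts in T24 and 12.7, 14.4 and 15.2 CPM in UMUC3. Over the 19, 1 passed as higher and 5 as lower in T24, or 31.6% in either direction beside 40.2% of all genes, and KIF5A and AGAP2-AS1 had passed the filter on low counts through the line in which they were high. 

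The genes whose levels ran most like CDK4 over the 6 libraries were named by Pearson correlation of log2 CPM among 11138 genes of at least 5 CPM on average, as a description of 6 points in 2 lines. They were UQCRQ (0.995), a subunit of respiratory complex III, DCAF12 (0.994) and WSB2 (0.991), adaptors of ubiquitin ligases, PSMC6 (0.989), an ATPase of the proteasome, and MRPS9 (0.989), a mitochondrial ribosomal protein gene. UQCRQ had 131, 80.2 and 80.5 CPM in T24 and 154, 96.8 and 99.5 CPM in UMUC3, whereas WSB2 had 95.3, 25.6 and 26.0 CPM and 292, 42.1 and 43.8 CPM. Of the other 9 genes of the set, CDKN1A came closest, at 0.90 and rank 131, and CDK6 ran the other way, at -0.76. By rank correlation 25 genes tied at 1 and 0 of the 5 were among them, so the order at the top rests on the measure.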

How the data were processed

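RNA of 6 libraries (T24 and UMUC3, each with 1 control and 2 circPTK2 knockdown libraries) was analysed from 1 table of raw counts for each transcript, deposited by the authors and not normalized. The submitters' processing notes name the build hg38 and, with no order, StringTie 1.3.3b, HISAT2 2.1.0 and FastQC 0.11.5; the role of each, strand and RNA selection are not given in the sources used here. Of 136953 transcript rows, 121915 name a gene and 121237 had the coordinates of GENCODE release 29, from which lengths, types and positions were taken. The other 15038 rows, 14.86% to 16.1% of a library's counts, were left out.

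Transcript counts were summed by gene. Genes with at least 10 counts in 2 libraries and 30 in all were tested (20721) with edgeR 4.0.16 in R 4.3.3, with TMM scaling, a robust quasi-likelihood fit and Benjamini-Hochberg adjustment at 0.05. Knockdown over both lines and the line difference came from an additive fit with 3 residual degrees of freedom. Single lines and their difference came from a fit of 4 groups with 2, in which a lone control is assumed to vary like the knockdown pairs. Limma 3.58.1 (voom), DESeq2 1.42.0 and other settings were alternatives. The newer form of edgeR's quasi-likelihood fit was chosen after counts of calls from the older form had been seen, and the older form is given as an alternative. The fits were also run on simulated counts drawn with the same dispersion for every gene. The libraries here need not vary in that way, so nothing about these results is read from that run. Total counts of 65111683 to 72362436 set the precision; intervals are 95% and cover counting error only.

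The 10 genes and the gene lists were chosen with earlier results of these data known. Text names all 10 genes, both locus lists, the 5 genes most like CDK4, and from each other pathway list up to 2 called genes in a direction or the 2 with the smallest p, in the comparison that named them; marker lists are given as counts and sums. Beside these stand a few chosen after their values were seen for their role or placement (CDC37, RBL1 in T24, E2F1, MCM2 and CDC6 in UMUC3, ZMAT3, and CCNE1 and SKP2 in both lines).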

Additional observations from a re-analysis of the deposited data

Results flagged for a closer look

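CCND3 was singled out because its knockdown libraries moved in opposite directions in the 2 lines: both lay below the control in T24 (48.6, 43.3 and 44.5 CPM) and both lay above it in UMUC3 (56.7, 71.5 and 66.0 CPM). UMUC3 minus T24 was 0.43 ± 0.19 on the log2 scale and ranged from 0.37 to 0.89 over its alternatives. These values chose the gene, so the difference is given as a description with no test.

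Rows of the count table that name no gene held up to 16.1% of a library's counts and 14.86% at the least. These counts lie outside every gene sum above, and whether any belong to the 10 genes was not tested.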

How the results depend on the processing

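The number of genes past the threshold depended strongly on the tool. The counts above were 3 for both lines together, 28 in T24, 134 in UMUC3, 12 for the difference between lines and 8329 for T24 against UMUC3. In the order of the first 4, DESeq2 called 987, 963, 1700 and 1120, and no filter on low counts gave 8, 43, 224 and 35. Voom called 0 in T24, 0 in UMUC3 and 0 for the difference (2899, 3648 and 2977 at an unadjusted p below 0.05). RLE size factors gave 5 for the difference. The older quasi-likelihood method of edgeR, added after seeing the data, gave 2 in T24, 13 in UMUC3 and 5 for the difference, the same with a robust dispersion; without robust fitting it gave 0 for both lines together (2022 at an unadjusted p below 0.05), 2 in T24, 0 in UMUC3 (3518) and 5 for the difference.

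Leaving out 1 library gave 0 to 135 calls for both lines together (135 without the T24 control, 25 without the UMUC3 control, 0 without any 1 knockdown library, with 1748 to 1861 at an unadjusted p below 0.05), 0 in T24, in UMUC3 and for the difference between lines (1916 to 2428, 2802 to 2949 and 2156 to 2592), and 5913 to 7222 for T24 against UMUC3. Without a T24 or UMUC3 control the remaining line alone carries the value. With the replicate number as a block, 0 genes passed in the 4 knockdown comparisons by the numbers of the titles and 0 by those of the columns (1780 to 2975 at an unadjusted p below 0.05), and 6847 and 6811 passed for T24 against UMUC3. The deviations of same-numbered libraries had a correlation of -0.013 by titles over 11139 genes. The value by columns, 0.013, is the same number with its sign turned and not a further check. Whether same-numbered libraries shared an agent or a batch was not tested.

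On the log2 scale CDK4 ranged over the settings from -2.57 to -2.31 for both lines together, from -2.36 to -2.10 in T24 and from -2.83 to -2.56 in UMUC3. CDKN1A ranged from -2.51 to -0.77, from -1.99 to -0.69 and from -2.96 to -2.21, and CDK2 in T24 from -1.29 to -0.38. The sign of some small differences changed: CCND1 ranged from -0.79 to 0.12 in T24 and from -0.44 to 0.14 in UMUC3, and CCND3 over both lines from -0.15 to 0.33. With rank correlation 0 of the 5 genes most like CDK4 were kept. The largest share of transcripts moved, 58.0%, was 58.1% with transcripts of at least 10 counts. With 1 control library in each line, a difference between lines or a small change is limited by that library, whatever the depth.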
